A study of Mus musculus with 20 samples.

Results

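Usp26 (ENSMUSG00000055780), an X-linked gene that encodes a ubiquitin-specific protease, was followed through a study of mice and mouse cells that lack Zmym2, a zinc finger protein of transcriptional repressor complexes. The gene was taken by its symbol and is 1 of 22729 genes in the embryo table, 1 of 20159 in the table of mouse embryonic stem cells (mESCs) and 1 of 20142 in the table of embryoid bodies (EBs). It was chosen by its measured level in these libraries, which differed between the genotypes, so its own genotype and stage differences are given here as a description, without a test. RNA was sequenced from 6 Zmym2+/+ and 6 Zmym2-/- single whole C57BL/6 embryos at embryonic day 8.5, with 3 males and 3 females of each genotype. The null allele is an early frameshift in the first coding exon. RNA was also sequenced from V6.5 mESC lines (C57BL/6x129/SvJae) in serum and LIF and from EBs at day 3, with 2 control and 2 Zmym2-/- libraries at each stage. The lines are clonal, picked as single colonies after nucleofection with Cas9, and the controls received a non-targeting guide RNA. An effect of Zmym2 and an effect of being 1 clone cannot be told apart within a line.

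Deubiquitinases remove ubiquitin from proteins and so change their stability, location or activity. USP26 belongs to the ubiquitin-specific proteases (USPs), was found among X-linked genes of spermatogonia, and in the adult is known as a gene of the testis. Proteins reported as its substrates in other systems include the p53 ligase MDM2, the TGF-beta inhibitor SMAD7 and the Polycomb protein CBX6. Neither embryos at this age nor mESCs are a tissue for which Usp26 is known.

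In the GRCm38 annotation (GENCODE vM21) Usp26 lies on the minus strand of chromosome X from 51753959 to 51801233. Its 2 annotated transcripts have 8 and 9 exons and lengths of 4120 and 4133 bases. The whole coding sequence, 835 codons without the stop, lies within the last exon (X, 51754892 to 51757396), and that exon makes up 85.3% of the shorter transcript. No transcript of another gene shared a run of 49 bases or more with Usp26 on either strand. A near-identical copy that could take or give its reads was therefore not found in this annotation.

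The start of Usp26 is shown beside that of Usp37, a relative expressed in all 20 libraries, because they differ in CpG content, the substrate of DNA methylation. Each sequence is RefSeq's (GRCm38.p6), runs 5′ to 3′ from 250 bases before to 50 after the annotated start, and has each CpG in capitals. The Usp26 window is chrX:51801184-51801483 on the minus strand, and the Usp37 window is chr1:74505772-74506071, also on the minus strand.
Usp26: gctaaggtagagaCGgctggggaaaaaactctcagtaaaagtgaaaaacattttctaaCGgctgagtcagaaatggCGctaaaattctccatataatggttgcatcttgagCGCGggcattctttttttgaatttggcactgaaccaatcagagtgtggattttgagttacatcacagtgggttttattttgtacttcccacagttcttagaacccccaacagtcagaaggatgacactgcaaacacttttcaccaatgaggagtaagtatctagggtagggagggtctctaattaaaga
Usp37: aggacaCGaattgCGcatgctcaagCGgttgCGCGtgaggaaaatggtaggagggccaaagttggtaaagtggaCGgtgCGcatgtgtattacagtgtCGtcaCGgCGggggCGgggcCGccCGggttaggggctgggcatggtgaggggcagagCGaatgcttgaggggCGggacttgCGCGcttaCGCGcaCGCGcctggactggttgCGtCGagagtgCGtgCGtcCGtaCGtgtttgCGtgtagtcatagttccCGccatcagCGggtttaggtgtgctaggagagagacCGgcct

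The Usp26 window held 5 CpGs and was 41.3% G and C. Of 32851 promoter windows of the same length, 43.6% held as few or fewer, and the median window held 7. Usp37 held 31 CpGs and Usp29, the other close relative, 17. The median was 25 over 42 windows of other members of the USP family and 8 over 19 windows of X-linked germ cell genes. Nxf2 gave more than 1 of these 19, and several came from near-copies of the Fthl17 family. In its CpG content the start of Usp26 was thus nearer to the median of the germ cell genes than to that of its own family. The start of Usp26 was nearer still to the median of all windows, 7, so this likeness was not particular to germ cell genes. Of 5 motifs searched on both strands, the Usp26 window held only CCAAT, which was found in 37.4% of all windows. It held no E2F motif (GGCGGGA, 11.3% of windows), no E-box (CACGTG, 7.15%), no CRE (TGACGTCA, 1.79%) and no GC box (GGGCGG, 35.7%). The start of the shorter transcript, at 51801144, lies just beyond the 3′ end of the window, and which start was used cannot be read from counts per gene.

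Libraries held 32016880 to 64057608 counts. Levels are given as CPM, in which counts are divided by the sum of the library after adjustment between libraries by the trimmed mean of M values (TMM). The transcript of Zmym2 itself spanned 50.3 to 125 CPM over the Zmym2+/+ embryos and 25.4 to 67.1 CPM over those without the protein, and the ranges overlap. The log2 difference of -0.91 in embryos did not pass the test (SE 0.25, edgeR adjusted p = 0.226). It fell in mESCs, from 70.0 ± 2.72 to 28.5 ± 1.3 CPM (SD, n = 2 each, edgeR adjusted p = 3.1e-06), and in EBs, from 91.5 ± 0.36 to 31.1 ± 1.14 CPM (SD, n = 2 each, edgeR adjusted p = 9.7e-08). The RNA level is thus a weak check of the genotype in embryos. Marker genes of heart, blood, visceral endoderm and neural plate were present in every embryo, but at uneven levels. Heart markers summed to 272 to 852 CPM in Zmym2+/+ embryos and 27.6 to 1016 CPM in Zmym2-/- embryos. For blood the ranges were 22.4 to 7493 and 47.9 to 3270 CPM. For neural plate they were 37.5 to 160 and 37.4 to 182 CPM, and for visceral endoderm 1585 to 3844 and 1836 to 7159 CPM. Stem cell markers summed to 1734 to 4033 CPM in the lines against 71.5 to 438 CPM in the embryos. From mESC to EB, all 12 naive pluripotency markers fell and 9 of 10 markers of early differentiation rose in both genotypes (edgeR, adjusted p under 0.05), where 23.6% and 22.1% of all genes fell and 23% and 23.1% rose in control and Zmym2-/- cells.

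Usp26 was close to absent in most Zmym2+/+ embryos and was a well expressed gene in every Zmym2-/- embryo. The Zmym2+/+ embryos, numbered 1 to 6, had 163, 6, 0, 16, 1 and 0 counts, from a lowest level of 0 through a median of 0.0946 to a highest of 4.27 CPM. The Zmym2-/- embryos had 3520, 4111, 1841, 1676, 1038 and 2209 counts, from 25.7 through a median of 37.2 to 70.8 CPM. The groups did not overlap, and the lowest Zmym2-/- embryo was above the highest Zmym2+/+ embryo. All 6 Zmym2-/- embryos stood above all 6 Zmym2+/+ embryos in 1.03% of the genes tested. A count of 0 allows up to 3 counts, which is 0.0613 CPM in Zmym2+/+ embryo 3 and 0.0469 CPM in embryo 6, counting error only.

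The group means were 0.817 ± 1.70 CPM for Zmym2+/+ and 41.8 ± 16.8 CPM for Zmym2-/- (SD over 6 embryos each). The fitted log2 fold change was 5.70 (SE 1.17), and summed counts per total differed 65.2-fold. The spread in the Zmym2+/+ group came almost wholly from embryo 1, a male, which held 163 of the 186 counts of that group. Without this embryo the log2 fold change was 8.51 (SE 0.87) and the summed ratio 448-fold. In whole embryos and cultures, fewer cells with the transcript and less transcript per cell cannot be told apart.

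**Figure D1:**
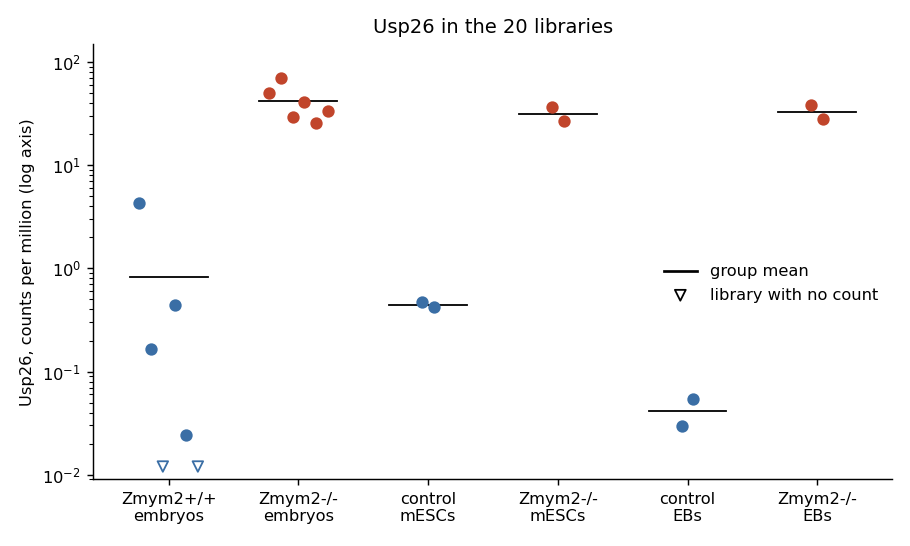
Usp26 in each of the 20 libraries, in CPM on a log axis, with 1 point per library, a bar at each group's mean and open triangles at the foot of the axis for 2 libraries with no count. All 10 Zmym2-/- libraries lie between 25.7 and 70.8 CPM, and the 10 others lie at or below 4.27 CPM.

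Zmym2+/+ embryo 1 was set beside the 116 genes called higher in Zmym2-/- embryos (0.51% of genes tested). Usp26 lies among the 116, close to the limit of a call. That place is no test of Usp26, which was chosen for this difference. In this embryo Usp26 reached 10.2% of the Zmym2-/- mean, against 1.06% in embryo 4 and under 1% in the other four. Over the 116 genes the median share was 18.3% in embryo 1 and 10.2% to 14.8% in the others. Embryo 1 was the highest Zmym2+/+ embryo for 38 of the 116 genes, embryo 2 for 25 and the others for 5 to 18 each. Of the 6 genes with the profile nearest to that of Usp26 over all libraries or over the embryos, a likeness that itself takes in embryo 1, 5 were highest among the Zmym2+/+ embryos in embryo 1. AU022751 had 64 counts there and 10, 5, 36, 1 and 0 in embryos 2 to 6, Gm16411 had 50 and then 24, 1, 13, 0 and 0, and Tmprss11f, a transmembrane serine protease, had 11 and at most 1. Pla2g1b, a secreted phospholipase, had 4 counts there and 1 to 5 in the others, against 498 to 1955 in the Zmym2-/- embryos. Markers of primordial germ cells summed to 257 CPM in embryo 1, in a group that ranged from 75.6 to 297 CPM. Only embryo 2 of that group was higher. Among the 10 markers Nanos3 had 2 counts in embryo 1, Dppa3 9, Dnd1 67 and Pou5f1 657. Trophoblast markers summed to 839 CPM in embryo 1 and 1414 CPM in embryo 2. In the other Zmym2+/+ embryos they summed to 84.5 to 349 CPM. The parts of germ cells and of trophoblast in the level of embryo 1 were not tested.

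Each embryo's name holds a letter (H or J), taken here as a series, and a number, taken here as a litter, and 3 of these litters held both genotypes. In litter H2121 the Zmym2-/- female had 10.2 times the Usp26 of its Zmym2+/+ brother, embryo 1 (95% counting interval 8.72 to 12.1), and 96.7 times that of its Zmym2+/+ sister (59.4 to 170). In litter H2408 the ratio of the Zmym2-/- female to its Zmym2+/+ brother was 173 (79.4 to 473). In litter J7444 the Zmym2+/+ male had no count, and its Zmym2-/- sister was at least 567-fold higher against a floor of 3 counts per library. Usp26 was higher in the Zmym2-/- embryo in each of these 4 pairs, and the smallest ratio again belonged to embryo 1. Intervals and floors cover counting error only. Both Zmym2+/+ embryos of series J had no count, while the 4 of series H had 1 to 163.

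**Figure D2:**
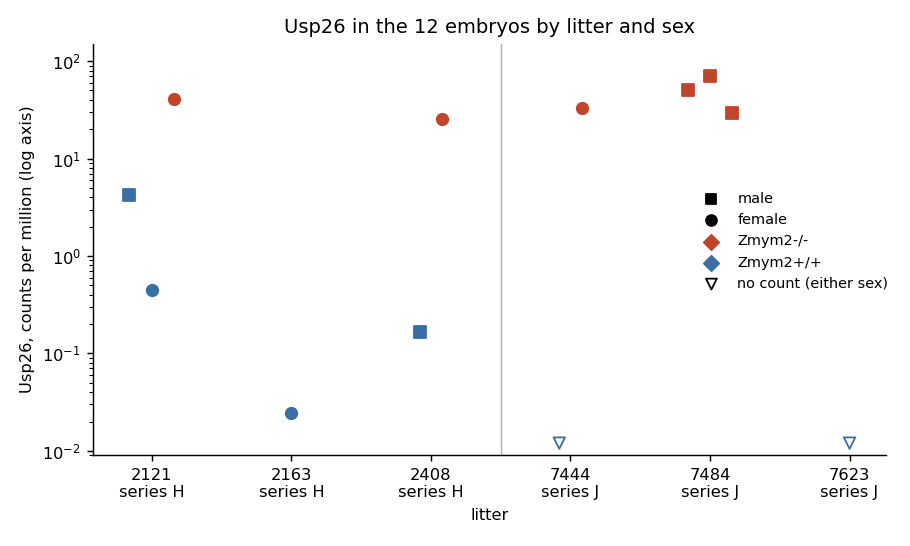
Usp26 in the 12 embryos by litter, in CPM on a log axis, with squares for males, circles for females, red for Zmym2-/-, blue for Zmym2+/+ and open triangles at the foot of the axis for embryos with no count. The vertical line parts series H from series J, and in each litter with both genotypes the Zmym2-/- embryo is above its littermates.

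Sex was not used in the choice of the gene and could be tested. In Zmym2-/- males Usp26 was at 50.5, 70.8 and 29.3 CPM, and in Zmym2-/- females at 41.0, 25.7 and 33.3 CPM. The sexes overlapped, and the female mean was lower by a log2 difference of -0.52 (two-sided exact permutation test, p = 0.3, n = 3 each, smallest possible p 0.1). In Zmym2+/+ embryos the difference was -1.61 (exact permutation test, p = 0.7, n = 3 each), with the male mean carried by embryo 1. A sex difference in this X-linked gene was thus not detectable with 3 embryos of each sex, and the design cannot reach 0.05. All 3 Zmym2-/- males came from litter J7484, so sex and litter cannot be told apart in that group. Within series J, the Zmym2-/- female at 33.3 CPM lay inside the range of the 3 males. Zmym2-/- embryos 5 and 6 stood apart in other genes, with Foxj1, a regulator of motile cilia, and Pou5f1 among them, yet their Usp26 of 25.7 and 33.3 CPM lay at and near the low end of the group. Without both of them the log2 fold change was 5.90 (SE 1.3).

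In mESCs the control libraries had 22 and 15 Usp26 counts (0.472 and 0.419 CPM) and the Zmym2-/- libraries 1243 and 846 (36.7 and 26.7 CPM). Both Zmym2-/- libraries were far above both controls, which were low but not at 0. The means were 0.445 ± 0.0379 and 31.7 ± 7.11 CPM (SD, n = 2 each), with a log2 fold change of 6.14 (SE 0.24) and a ratio of summed counts per total of 70.7 (95% counting interval 51.1 to 101). In EBs the control libraries had 1 and 2 counts (0.0298 and 0.0537 CPM) and the Zmym2-/- libraries 1986 and 985 (38.4 and 27.9 CPM). The control EBs were the lowest of the 4 groups of cultured cells, and the Zmym2-/- EBs were level with the Zmym2-/- mESCs. The means were 0.0417 ± 0.0169 and 33.1 ± 7.45 CPM (SD, n = 2 each), with a log2 fold change of 9.51 (SE 0.31) and a ratio of 814 (278 to 3950), whose wide interval comes from the 3 control counts.

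The larger ratio in EBs went with a lower level in the controls, while the Zmym2-/- level was close to that of mESCs. From mESC to EB, control Usp26 per total counts went to 0.0969 of its level (95% counting interval 0.0191 to 0.306), with a log2 difference of -3.31 (SE 0.74). Zmym2-/- Usp26 went to 1.12 of its level (1.05 to 1.18), or 0.07 on the TMM-scaled log2 scale (SE 0.16). The 2 log2 differences were 3.37 apart (SE 0.76). Each control number was lower in EBs, at 0.0646 and 0.132 of its mESC level, and each Zmym2-/- number was at 1.09 of it. Zmym2-/- library 1 was above library 2 by the same ratio at both stages, 1.38 in mESCs and 1.38 in EBs. The 3 Zmym2-/- settings gave similar means of 41.8, 31.7 and 33.1 CPM, and the range of the embryos took in all 4 Zmym2-/- culture libraries.

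**Figure D3:**
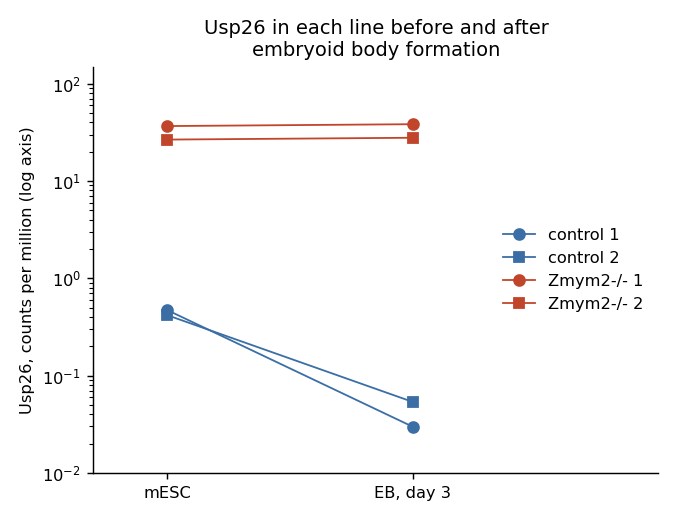
Usp26 in mESCs and in EBs at day 3, in CPM on a log axis, with a line joining the libraries of 1 genotype that carry the same number. Both control lines drop, from 0.419 and 0.472 to 0.0537 and 0.0298 CPM, and both Zmym2-/- lines stay between 26.7 and 38.4 CPM.

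Levels of different genes were compared per length, in RPKM (reads scaled by gene length and library total). Usp26 was at 0.184 RPKM on average in Zmym2+/+ embryos and 10.5 in Zmym2-/- embryos, 0.106 and 7.51 in mESCs, and 0.010 and 8.19 in EBs. Among 57 genes of the USP family it went from place 51 to place 17 in embryos, from 49 to 19 in mESCs and from 53 to 17 in EBs, counted from the highest mean. In the Zmym2-/- groups it was above the family median of 5.71, 3.58 and 4.45 RPKM, with neighbours in the order such as Usp25, Usp44, Usp48 and Usp15. In embryos, mESCs and EBs it exceeded 65.5%, 64.5% and 54.5% of all genes in the controls and 89.2%, 88.3% and 88.8% in the Zmym2-/- groups. In gain of mean RPKM, Usp26 was the second of the 57 in embryos (10.3, after 11.3 for Usp22) and in mESCs (7.40, after 7.49 for Usp28) and the first in EBs (8.18). Usp22 and Usp28 were already expressed in the controls, so their gains were small as ratios.

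The rest of the family mostly did not share this pattern. In embryos 0 of the 51 other members tested rose and 0 fell at an edgeR adjusted p under 0.05 (background 0.51% higher and 0.0132% lower), and the DESeq2 test also called none, while at an unadjusted p under 0.05 there were 3 higher and 1 lower. Their median log2 difference was 0.17, against 0.02 over all genes. In mESCs 10 of 55 rose and 7 fell (background 10.3% and 8.94%), and in EBs 7 of 55 rose and 0 fell (4.62% and 2.77%). Of these, 5 in each case were copies of Usp17, a multigene family marking 2-cell-like cells. Usp17le went from 0.0837 and 0.172 CPM to 8.73 and 15.3 CPM in mESCs (log2 fold change 6.47, SE 0.40, edgeR adjusted p = 4.8e-07) and from 0.122 to 14.2 CPM in EBs (6.78, SE 0.41, adjusted p = 1.6e-06). The Usp17 copies are near-identical and their reads could be split among them. Unlike Usp26, none of them was in the embryo count table.

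**Figure D4:**
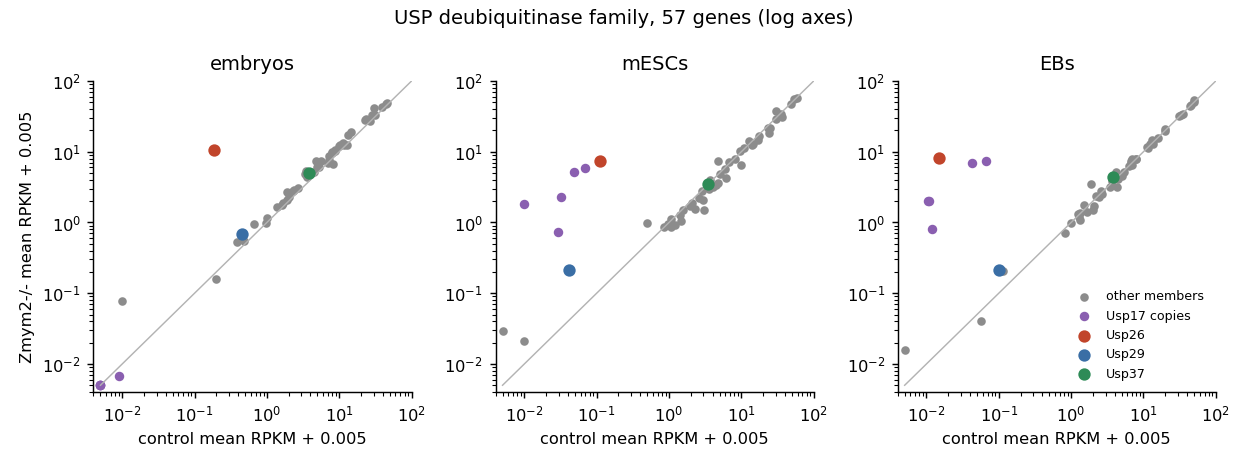
Mean RPKM of 57 USP genes in control (x) and Zmym2-/- (y) samples on log axes, with 0.005 added, for embryos, mESCs and EBs, and a diagonal where both are equal. Usp26 (red) lies far above the diagonal in all 3 panels, the Usp17 copies (violet) in mESCs and EBs, Usp29 (blue) above it in mESCs and less so in EBs, and Usp37 (green) near it.

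The closest relatives differed from each other. Usp29, an imprinted gene of the Peg3 domain, had means of 3.72 ± 0.93 and 5.26 ± 1.72 CPM in the embryo groups without and with the mutation (SD over 6 embryos each), a difference that did not pass the test (log2 0.50, edgeR adjusted p = 0.456). It rose in mESCs from 0.683 to 3.78 CPM (log2 fold change 2.46, SE 0.30, edgeR adjusted p = 9.3e-05) and in EBs from 1.69 to 3.71 CPM (1.15, SE 0.24, adjusted p = 0.0131). Control Usp29 rose from mESC to EB (log2 1.29, edgeR adjusted p = 0.0025), the opposite direction to control Usp26. Usp37, which acts in the cell cycle, stayed between 29.7 and 66.5 CPM in all libraries and passed no test between genotypes, with log2 differences of 0.30, 0.05 and 0.18.

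Genes of reported USP26 substrates were read as transcripts only, and protein was not measured. In embryos 0 of 5 passed the edgeR test, and in EBs 0 of 5, with 0 calls by DESeq2 in either and, at an unadjusted p under 0.05, 0 in embryos and 2 lower in EBs. In mESCs 2 of 5 fell (background 8.94%): Smad7 from 64.8 to 41.1 CPM (log2 fold change -0.66, SE 0.10, edgeR adjusted p = 0.00043) and Cbx6 from 82.5 to 61.8 CPM (-0.42, SE 0.10, adjusted p = 0.0087). In EBs the same 2 genes were at 71.9 against 81.2 CPM and 74.4 against 83.2 CPM, which did not pass. Mdm2 passed no test, with log2 differences of -0.25, -0.12 and 0.02 in embryos, mESCs and EBs.

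The complexes in which those substrates act were read in the same way. Of 12 canonical Polycomb repressive complex 1 genes, 0 passed in embryos by edgeR or DESeq2 (2 lower at an unadjusted p under 0.05), 3 rose and 1 fell in mESCs (background 10.3% and 8.94%), and 3 rose in EBs (background 4.62%). Phc1 rose in mESCs from 627 to 849 CPM (log2 fold change 0.44, SE 0.09, edgeR adjusted p = 0.0048) and in EBs from 658 to 820 CPM (0.32, SE 0.06, adjusted p = 0.0039), and Bmi1 rose in both from a low level (log2 0.98 and 0.64). Of 9 genes for deubiquitination of histone H2A, 0 passed in embryos by either tool (1 higher at an unadjusted p under 0.05), 1 rose and 1 fell in mESCs (Asxl1 and Bap1), which is near the background, and 1 rose in EBs. That one was Usp3, from 12.7 to 23.3 CPM (log2 fold change 0.88, SE 0.10, edgeR adjusted p = 0.0002).

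Germ cell genes of the X chromosome rose in part. In embryos 2 of 11 tested rose (background 0.51%): Rhox13, a homeobox gene of germ cells, from 0.0356 to 2.01 CPM (log2 fold change 5.85, SE 0.88, edgeR adjusted p = 0.006), and Fthl17f, a ferritin-like gene, from 0.0046 to 0.291 CPM (5.51, SE 0.75, adjusted p = 0.0026). In mESCs 3 of 11 rose (background 10.3%), namely Mageb16, Rhox13 and Tktl1, and in EBs 4 of 12 rose (4.62%), namely Rhox13, Mageb16, Tex11 and Fthl17a, with log2 fold changes of 1.00 to 2.35. DESeq2 called 1 of the 11 in mESCs and 2 of the 12 in EBs. Rhox13 was called in all 3 comparisons. Its control level fell from mESC to EB (0.951 to 0.425 CPM, log2 -1.16, edgeR adjusted p = 0.0229) and its Zmym2-/- level was 2.15 CPM at both stages. The difference between these 2 changes was 1.18 (SE 0.48) and did not pass (adjusted p = 0.192). Tex11, a meiotic gene, was at 9.69 CPM in control mESCs, so the list does not hold only genes that controls lack. Members of the Fthl17 family are near-copies, and their counts are uncertain.

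Of the Y-linked genes of spermatogonia 3 were tested in embryos, and 0 passed with both sexes together (edgeR adjusted p of 0.152 for Uba1y, 0.166 for Zfy1 and 0.38 for Usp9y). All 3 were higher at an unadjusted p under 0.05, and DESeq2 called 1. Uba1y, a ubiquitin-activating enzyme, reached at most 0.193 CPM in a Zmym2+/+ embryo and 32.4 CPM in a Zmym2-/- embryo, with some embryos of each genotype at 0. It was lower in Zmym2-/- females than in males (log2 -9.91, edgeR adjusted p = 0.0232; 0.0396% of genes tested were lower). Females have no Y chromosome, so the direction of this difference was fixed by sex, and no conclusion is drawn from it. For the same reason, the tests of Y-linked genes with both sexes together rest on the 3 males of each genotype. Uba1y rose in mESCs (0.0526 to 3.03 CPM, log2 fold change 5.86, SE 0.81, edgeR adjusted p = 0.00025) and EBs (0.0134 to 1.12 CPM, 5.96, SE 1.23, adjusted p = 0.0112). Usp9y, a deubiquitinase, rose in mESCs (log2 5.91, edgeR adjusted p = 0.0281). Its mean went only from 0 to 0.0245 RPKM, so this fold change is uncertain. DESeq2 called 1 of the 2 Y-linked genes tested in mESCs. The list of germ cell genes of the ubiquitin pathway holds Uba1y and Usp9y again. In embryos it gave 0 edgeR calls among 7 tested (1 higher by DESeq2, and 2 higher and 1 lower at an unadjusted p under 0.05). In mESCs 4 of 6 were higher (Uba1y, Usp44, Usp50 and Usp9y, with a background of 10.3%), and DESeq2 called 3 higher. In EBs 1 of 5 was higher (Uba1y, with a background of 4.62%).

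Autosomal genes of spermatogonia and meiosis rose in part in all 3 comparisons. In embryos 7 of 18 tested rose and 0 fell (background 0.51% and 0.0132%; 11 rose by DESeq2), with a median log2 difference over all 18 of 1.93. Rnf17, a piRNA pathway gene, went from 7.66 ± 2.05 CPM to 32.7 ± 3.11 CPM (SD over 6 embryos each, log2 fold change 2.09, SE 0.18, edgeR adjusted p = 0.00014), and Mael, which acts in the same pathway, from 0.145 to 3.39 CPM (4.53, SE 0.43, adjusted p = 0.00015). The others were Tex15, Tdrd1, Ddx4, Stra8 and Sycp3. In mESCs 5 of 19 rose and 1 fell (background 10.3% and 8.94%; 4 and 2 by DESeq2), and the one that fell was the germ cell helicase Ddx4 (33.9 to 20.1 CPM, log2 -0.75, SE 0.13, edgeR adjusted p = 0.0013). In EBs 12 of 19 rose and 0 fell (background 4.62% and 2.77%; 8 rose by DESeq2), led by Tex15 (8.63 to 26.6 CPM, log2 1.62, SE 0.12, adjusted p = 8.6e-06) and Sohlh2 (1.90 to 9.23 CPM, 2.29, SE 0.19, adjusted p = 2.1e-05). In control cells 12 of 19 fell and 2 rose from mESC to EB (background 23.6% and 23%). In Zmym2-/- cells 8 fell and 3 rose (22.1% and 23.1%). The stage change was more positive in Zmym2-/- cells for 7 of 19 and more negative for 0 (background 3.07% and 2.18%). Tex15 was one of them, with a fall of 1.09 in controls, a rise of 0.37 in Zmym2-/- cells and a difference of 1.46 (SE 0.17, edgeR adjusted p = 0.00057), and Ddx4 and Dazl were others.

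Of 12 markers of 2-cell-like cells 0 were in the embryo count table, and 10 of 11 rose in mESCs (background 10.3%) and 10 of 12 in EBs (4.62%). Zscan4c went from 0.0773 to 14.5 CPM in mESCs and from 0.0134 to 12.2 CPM in EBs (log2 7.57 and 9.48, edgeR adjusted p = 4.6e-06 and 5.0e-06). Usp26 was also high in Zmym2-/- embryos, where these markers were not in the table. Naive pluripotency markers gave 2 higher and 6 lower of 12 in mESCs (background 10.3% and 8.94%), with Klf4 the lower one with the smallest p (374 to 101 CPM, log2 -1.88, edgeR adjusted p = 9.15e-08), and 3 higher and 1 lower in EBs (4.62% and 2.77%). Their part in the level of Usp26 was not tested.

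**Figure D5:**
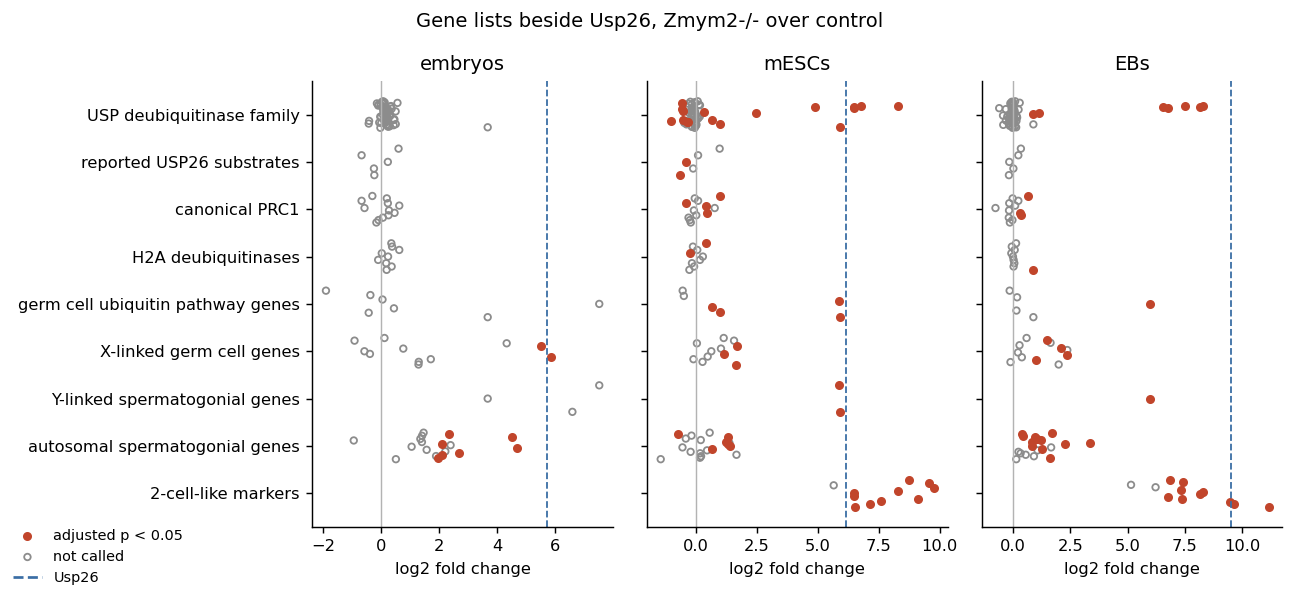
Log2 fold change of Zmym2-/- over control for each tested member of 9 gene lists (rows) in embryos, mESCs and EBs, with filled points for an edgeR adjusted p under 0.05, open points for the rest, and a dashed line at the value of Usp26. Most listed genes that passed lie to the left of the dashed line, and in mESCs several 2-cell-like markers lie to its right.

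Of the genes around Usp26 on the X chromosome, none passed between genotypes in embryos or EBs, and some rose in mESCs. Of 27 other annotated genes whose start lies within 1 Mb, 11 were tested in embryos and 0 passed by edgeR (1 higher at an unadjusted p under 0.05), with a median log2 difference of 0.13. On the side of the lower coordinates the nearest tested was Hs6st2, a heparan sulfate sulfotransferase at 51387212 to 51681856, with 45.9 CPM in the control embryos and 44.2 CPM in the mutants (log2 -0.05, SE 0.25, edgeR adjusted p = 0.952). On the other side it was the glypican Gpc4 at 52053021 to 52165252, with 13.9 and 15.2 CPM (0.13, SE 0.25, adjusted p = 0.862). In mESCs 3 of 9 rose (background 10.3%): Gpc4 from 22.2 to 31.6 CPM (log2 0.51, SE 0.12, edgeR adjusted p = 0.0077), Mir363 from 0.334 to 1.20 CPM (1.79, adjusted p = 0.0194) and Kis2, a noncoding transcript beside the same microRNA cluster, from 0.103 to 0.658 CPM (2.58, adjusted p = 0.0134). In EBs 0 of 10 passed by edgeR (2 higher and 1 lower at an unadjusted p under 0.05). From mESC to EB in controls 5 of 9 tested neighbours rose and 1 fell (background 23% and 23.6%). Hs6st2 was among those that rose (log2 1.81, edgeR adjusted p = 3.4e-07), and the one that fell was Gpc4 (-0.52, adjusted p = 0.0039).

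The genes most like Usp26 were found by the root mean square difference of log2 CPM, each gene centred on its own mean, over the 17426 genes measured in all 20 libraries. The nearest 5 were Gm16411 (2.13 log2 units), Gm11218 (2.18), AU022751 (2.22), Gm6673 (2.24) and Tmprss11f (2.34), where the median gene stood at 4.08 and a gene with no variation would stand at 4.02. Over the 12 embryos the nearest were Gm16411 (1.59), AU022751 (1.60), Gm6673 (1.61), Pla2g1b (1.64) and Tmprss11f (1.65), where the median gene stood at 4.25. These distances are far from 0, so no gene tracked Usp26 closely. These genes were picked for their likeness to Usp26 in these libraries, so their own genotype differences are no independent result. In embryos the 6 genes had means of 0.0520 to 0.513 CPM in Zmym2+/+ and 2.75 to 19.7 CPM in Zmym2-/-, and Gm16411, AU022751 and Gm6673 did not pass the edgeR test (adjusted p of 0.113, 0.0938 and 0.0814). All 6 were higher in Zmym2-/- mESCs, by log2 differences of 2.11 to 3.09, and all but Tmprss11f passed in EBs, with 2.34 to 3.71. In control cells the change from mESC to EB varied among them. Gm16411 was at 0.648 CPM in control mESCs and 0.879 in control EBs, AU022751 at 1.38 and 1.96, and Gm11218 rose (log2 1.52, edgeR adjusted p = 0.0314), where control Usp26 was lower in EBs. Pla2g1b fell there (16.5 to 6.34 CPM, log2 -1.39, adjusted p = 9.9e-06) but stayed well above 0.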

How the data were processed

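RNA was measured in 12 embryos, 4 mESC and 4 EB libraries. Per the labels, the authors used Trimmomatic (0.34), STAR (2.7.8a) on mm10 (GRCm38), Picard (2.9.0) and HTSeq, and the strand setting of counting is not given in the sources used here. The authors deposited raw counts per gene, a normalised score beside each count (used only as a check), and RPKM from StringTie (1.3.5). Raw counts were fitted over all genes with at least 10 counts in total with edgeR (4.0.16) in R (4.3.3), with TMM scaling and the two-sided quasi-likelihood test. A call is a Benjamini-Hochberg adjusted p under 0.05. An SE is the size of the fold change in log2 units divided by the root of the test's F. DESeq2 (1.42.0), other filters, scalings, blocks and left-out libraries were alternatives. The genotype comparisons used no block, and the fit was tested on simulated data. At the smallest total, 1 CPM is 32.0 counts.

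Count ratios are per total counts with exact 95% conditional intervals. For log2 CPM values, a prior count of 2 was used. Replicates are separate embryos or libraries, and nothing states that the culture libraries are separate experiments, so p-values measure the spread between these samples. Replicate numbers did not pair embryos of the 2 genotypes (same-number correlations -0.276 to 0.296). The numbers of the lines recur at both stages and are read as lines, which the labels do not state. Usp26 and all lists were chosen with earlier results of these data known. Named were Zmym2, Usp26, its relatives, the substrates (some members are counted but not reported here by name), up to 4 list members with the smallest p per genotype comparison, the nearest X neighbours and the called ones, and the 5 nearest profiles. Other called genes that complete a short count were named after their values were seen.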

Additional observations from a re-analysis of the deposited data

Results flagged for a closer look

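Zmym2+/+ embryo 1 stood apart from the other 5 Zmym2+/+ embryos, at 4.27 CPM and 0.958 RPKM of Usp26 against at most 0.444 CPM and 0.101 RPKM in the others. Its gap to the next embryo was 0.896 of the range of the group in CPM and 0.895 in RPKM. A gap of 0.625 of the range was the limit used to flag a library among 6. Many of these levels lie at or near 0, so no error rate can be given for this limit. The gap is a description of the gene's own levels and no test. The Zmym2-/- embryos did not pass this limit (0.452 in CPM).

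From mESC to EB, Usp26 went to 0.0646 and 0.132 of its level in the control libraries numbered 1 and 2, and to 1.09 of its level in both Zmym2-/- libraries (1.0934 and 1.0873). Usp26 was thus lower in EBs in both control libraries and near its mESC level in both Zmym2-/- libraries. The counting interval of the second Zmym2-/- ratio, 0.991 to 1.19, includes no change. This difference between the genotypes was not tested, because the gene was chosen for it.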

How the results depend on the processing

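Of 82 values of the Usp26 log2 differences from other fits of the counts, 71 moved by less than the spread between replicates and 0 changed the sign of a difference larger than that spread. Some of the 82 could hardly move, such as fits without the filter or without a library outside the comparison. The spread in embryos was 1.90 log2 units, so 6.74 with series as a covariate, against 5.70, counted as not moved. In embryos the value was 5.44 to 8.51 with each embryo left out, and the highest was without Zmym2+/+ embryo 1. It was 7.89 in females alone and 14.47 in series J alone, which rests on 2 Zmym2+/+ embryos with no count and is no bound. Leaving out each library gave 5.89 to 6.36 in mESCs, 9.20 to 9.98 in EBs and -3.77 to -3.01 for control EBs over mESCs. It gave -0.19 to 0.32 for Zmym2-/- EBs over mESCs, on both sides of no change, and 3.07 to 3.84 for the difference of the stage changes. On log2(RPKM + 0.1) the values were 5.19 in mESCs, 6.22 in EBs, -0.90 for control EBs over mESCs and 1.03 for the difference of the stage changes. The 0.1 added is near the mean control level in mESCs (0.106 RPKM) and exceeds that in EBs (0.010 RPKM). With 1 added the values were, in the same order, 2.93, 3.17, -0.13 and 0.24, and 3.25 in embryos.

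With a replicate block on the numbers, which do not pair the embryos, Usp26 in embryos was 7.87, and 49 genes were called. The block on line numbers took the calls for the difference of the stage changes from 993 to 2325 (same-number correlations of 0.0487 in controls and 0.199 in Zmym2-/- cells) and left the Usp26 value at 3.36. Against 119 genes called in embryos there were 356 with DESeq2 (324 higher, 32 lower), 69 with at least 1 CPM required, 384 in males alone (131 higher, 253 lower), 15 in females, 47 in series J, 77 without Zmym2-/- embryos 5 and 6, and 1 each in series H alone and with litter as a block. The cause of these shifts was not tested. Leaving out a library gave 2351 to 3858 calls in mESCs, lowest without control 2, and 404 to 1221 for the difference of the stage changes, lowest without control EB 2. For females over males among Zmym2-/- embryos DESeq2 called 2044 genes and edgeR 12. DESeq2 called 16 list members in embryos against 9, with 11 autosomal germ cell genes against 7, but 8 of these against 12 in EBs, and 1 X-linked germ cell gene against 3 in mESCs and 2 against 4 in EBs. With a prior count of 0.5, 3 of the 5 nearest genes in embryos were the same. No gene had under 10 counts in total, so dropping that filter changed nothing. Usp26 in control EBs rests on 3 counts in all, so counting error limits every ratio against that group.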
